A study of Mus musculus with 54 samples.

Results

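The mitosis genes examined here are 37 mouse genes whose products drive cells into mitosis, carry the chromosomes apart or end the division. They were taken by symbol from 4 tables of TPM (transcript abundance scaled to the library's total), which together list 43615 gene symbols. All 37 were listed in each table, and all 37 passed the filter on low values in each (3 or more libraries with a TPM of 1 or more). By role they comprise 6 cyclins and kinases of mitotic entry, 2 proteins of chromosome structure and the 4 subunits of the chromosomal passenger complex. They also include 5 centromere and kinetochore proteins, 3 kinases of the spindle checkpoint and 9 spindle proteins and motors. The remaining genes are 5 proteins of the midzone and cytokinesis and 3 proteins linked to degradation at mitotic entry or exit.

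A cell enters mitosis when the kinase Cdk1, bound to its cyclins, phosphorylates many targets, and it leaves when the anaphase-promoting complex marks those cyclins for destruction. Transcripts of these genes are low in resting cells, build up through late S phase and G2 and fall after division, so in a bulk sample their level is widely used as a readout of dividing cells. In the healthy adult lung few cells divide, while after bleomycin injury epithelial, endothelial, mesenchymal and immune cells can all do so.

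Poly(A) RNA was sequenced from 54 wild-type mouse samples to compare states of branched-chain amino acid supply (BCAA: leucine, isoleucine and valine) in lung fibroblasts and in bleomycin-injured lungs. Primary fibroblasts from lungs of mice aged 6 to 8 weeks were grown in 10% serum at 5% oxygen and formed 8 culture groups of 3 libraries. They were held for 24 h in complete medium, in BCAA-free medium, or in BCAA-free medium with BCAA or with the derived branched-chain keto acids (BCKA) added back, and PBS or 20 ng/mL TGF-β1 (transforming growth factor β1) followed for 48 h. TGF-β1 is the main inducer of myofibroblasts. Whole lungs came from male C57BL/6 mice aged 10 to 12 weeks in 3 experiments. Each set PBS lungs beside bleomycin lungs and beside bleomycin lungs under 1 further treatment. The water experiment had 3 mice per group and a bleomycin dose of 1.25 mg/kg. Its treated mice drank 3 mM BCAA from 7 days before bleomycin, and lungs were collected at day 14. The diet experiment had 4 mice per group and the same dose of 1.25 mg/kg. Its treated mice were switched on day 7 to food without BCAA for the last 14 days, and lungs were collected at day 21. The BT2 experiment had 3 mice per group and a dose of 3.5 mg/kg, followed from day 3 by 11 daily injections of 10% DMSO or of 20 mg/kg BT2, which inhibits the kinase that shuts off BCKA oxidation, and lungs were collected at day 14. The PBS samples of that experiment carry DMSO in their titles only. Nothing in the labels says that libraries of a culture group came from separate cell isolates, so their p-values may measure technical spread alone.

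The values are TPM, so the depth of each library is unknown. Genes above 0 numbered 15003 to 16653 per culture library and 17554 to 25632 per lung library. Libraries were tested within a table only, with limma on log2(TPM + 1). Some marker levels of PBS lungs are set side by side across experiments without a test. Each difference below is a log2 difference on the log2(TPM + 1) scale, which understates the change of low genes. A gene was called at an adjusted p (Benjamini-Hochberg over all genes of the table, limma) under 0.05. Some libraries stood apart. Library 1 of BCAA-free medium with TGF-β1 had a summed TPM of 10 fibroblast markers of 56113, against 11247 and 14953 in libraries 2 and 3. In the diet experiment, library 3 of the BCAA-free diet had 17554 genes above 0, the lowest count of the lungs, with 34 of the 37 mitosis genes above 0. Mitochondrial transcripts made up 16.5% of its TPM, against 4.38 to 5.66% in the other 3 lungs of its group. The 4 PBS lungs of the diet experiment had a summed TPM of 7 endothelial markers of 182 to 303, against 1180 to 2602 in the PBS lungs of the other experiments.

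The promoters are shown first because they carry what the genes share in sequence. RefSeq promoter windows (GRCm38.p6, 250 bases before to 50 after the start) were matched for 32 of the 37 genes. Each window was searched on both strands for the CHR element, which recruits the MuvB complexes known for cell cycle genes. Its main form is TTTGAA, and this form reads TTCAAA when it lies on the reverse strand of the window. The other form that was searched is TTCGAA and reads alike on both strands. The search also covered the box bound by NF-Y, CCAAT on the forward strand, which on the reverse strand is read as ATTGG. The forms do not overlap each other in the sequences printed here. A CHR was present in 27 of 32 (84.4%), against 19.2% of 32851 promoter windows of the same length. A CCAAT box was present in 25 of 32 (78.1%), against 37.4%, and both were present in 23 of 32 (71.9%), against 7.52%. Here a gene was counted if any of its windows held the match, while the shares of all promoters count single windows. By single windows of these genes, 29 of 34 held a CHR, 27 a CCAAT box and 25 both. The genes with neither searched form of the CHR in this window were Ccnb1, Birc5, Cenpe, Nuf2 and Nusap1. Other forms of the CHR were not searched. A match is a description of letters and does not show binding. Below are the 130 bases before the start, 5′ to 3′ on the gene's strand, with the searched CHR and CCAAT letters in capitals. They are given for 5 genes with a CHR near the start and for Ccnb1, in which neither searched form was found.
Cdk1: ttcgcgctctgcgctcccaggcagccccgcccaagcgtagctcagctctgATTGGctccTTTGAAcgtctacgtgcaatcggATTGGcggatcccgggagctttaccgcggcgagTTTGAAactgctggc
Top2a: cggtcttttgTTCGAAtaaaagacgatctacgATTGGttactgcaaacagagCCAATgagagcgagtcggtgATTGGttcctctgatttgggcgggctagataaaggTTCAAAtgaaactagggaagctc
Kif11: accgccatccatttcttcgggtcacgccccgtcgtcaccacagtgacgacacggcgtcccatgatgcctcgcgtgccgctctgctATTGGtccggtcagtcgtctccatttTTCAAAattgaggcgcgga
Ube2c: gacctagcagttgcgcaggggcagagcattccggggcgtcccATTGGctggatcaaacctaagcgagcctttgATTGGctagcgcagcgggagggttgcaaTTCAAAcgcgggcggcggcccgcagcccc
Prc1: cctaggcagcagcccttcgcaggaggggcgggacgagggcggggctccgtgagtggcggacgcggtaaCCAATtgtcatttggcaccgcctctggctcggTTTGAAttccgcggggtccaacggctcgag
Ccnb1: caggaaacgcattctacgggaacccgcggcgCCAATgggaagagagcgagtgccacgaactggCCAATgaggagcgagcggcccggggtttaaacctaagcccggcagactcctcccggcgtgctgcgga

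On GRCm38.p6 these windows are chr10:69352913-69353042 (minus strand) for Cdk1, chr11:99024190-99024319 (minus) for Top2a, chr19:37376252-37376381 (plus) for Kif11, chr2:164769799-164769928 (plus) for Ube2c, chr7:80294346-80294475 (plus) for Prc1 and chr13:100786487-100786616 (minus) for Ccnb1. The CHR nearest the start begins 15 bases before it in Cdk1, 19 in Kif11, 23 in Top2a, 29 in Ube2c and 30 in Prc1. Cdk1 and Top2a each hold a further CHR, at 71 and 120 bases. Ccnb1 holds 2 CCAAT boxes.

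In fibroblasts given PBS, BCAA removal raised most of the mitosis genes. For the cultures, at rest or resting means without TGF-β1 in 10% serum and does not mean that division had stopped. In BCAA-free medium with PBS against complete medium with PBS, 25 of 37 rose and 0 fell, where 0.573% of all 13084 tested genes rose and 0.336% fell. The median of the 37 was a log2 difference of 0.84, against -0.03 over all tested genes, and the median ratio of group means was 1.92. The libraries of the 2 groups did not overlap for 36 of the 37, all of them higher without BCAA, against 7.34% of all genes. In bulk RNA, fewer cells of a type and less RNA per cell cannot be told apart.

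Cenpf, a large kinetochore protein, had the largest rise. Its levels were 6.05, 5.79 and 5.2 TPM in complete medium and 16.1, 15.2 and 16.1 TPM in BCAA-free medium, a log2 difference of 1.33 (adjusted p 0.000525, limma). The spindle protein Ckap2l was at 3.81, 4.75 and 2.67 TPM against 9.01, 11.8 and 10.3 TPM, a difference of 1.28 (adjusted p 0.00398, limma). Aspm, which focuses spindle poles, was at 3.20, 5.25 and 3.79 TPM against 11.7, 10.7 and 9.28 TPM, a difference of 1.20 (adjusted p 0.00351, limma). For all 3 genes the lowest BCAA-free library lay above the highest library of complete medium.

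The classic proliferation marker Mki67, a coat protein of mitotic chromosomes, was at 16.0, 17.4 and 14.5 TPM in complete medium and at 32.3, 36.1 and 37.9 TPM without BCAA (log2 difference 1.10, adjusted p 0.00265, limma). Top2a, the topoisomerase that untangles sister chromatids, was at 37.5, 38.0 and 30.4 TPM against 61.1, 57.4 and 62.9 TPM (0.76, adjusted p 0.00222). Both genes were higher in each BCAA-free library than in any library of complete medium. Ccnb1 and Ccnb2, the B-type cyclins that activate Cdk1, rose by 0.89 and 0.92 (adjusted p 0.00231 and 0.0198, limma). Aurkb, the kinase of the chromosomal passenger complex, rose from 3.20 ± 0.658 to 7.86 ± 0.831 TPM (SD, n = 3), a difference of 1.08 (adjusted p 0.0126, limma), and Birc5, a subunit of the same complex, rose by 1.08 (adjusted p 0.0189, limma).

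By role, 4 of 6 cyclins and kinases of entry, both chromosome structure genes, 2 of 4 passenger subunits, 3 of 5 kinetochore genes, 2 of 3 checkpoint kinases, 7 of 9 spindle genes, 4 of 5 cytokinesis genes and 1 of 3 genes of degradation rose. The 12 that were not called were Ttk, Incenp, Cdk1, Anln, Cenpa, Cdca8, Cenpe, Plk1, Kif11, Cdca3, Ube2c and Kif2c, each with a difference above 0. Cdk1 itself had a difference of 0.32 (95% interval 0.02 to 0.63, adjusted p 0.586, limma), and its libraries overlapped between the groups (16.1, 18.9 and 16.5 TPM against 22.1, 25 and 18.5 TPM). Plk1, the polo-like kinase of mitotic entry, had a difference of 0.67 (0.30 to 1.05, adjusted p 0.0916). The count depended on single libraries and on the pseudocount: 11 rose without library 3 of complete medium, 13 without library 2 of BCAA-free medium, and 15 with a pseudocount of 0.1.

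Fewer of the other cell cycle genes were called on BCAA removal. Of 63 tested further mitosis genes, 16 rose and 0 fell (median 0.47), among them the kinase Pbk at 5.40 ± 0.317 against 1.99 ± 0.369 TPM (log2 difference 1.10) and the spindle protein Dlgap5 at 8.36 ± 1.09 against 3.59 ± 0.942 TPM (1.04). Of 50 tested S phase and replication genes only Rrm2, a subunit of ribonucleotide reductase, was called (0.61, adjusted p 0.0256, limma), and the median was 0.08. Of 22 cell cycle transcription factors only Foxm1, which drives G2 and M phase genes, was called, at 13 ± 3.08 against 7.82 ± 0.583 TPM (0.65, adjusted p 0.0478, limma). None of 15 G1 cyclins, kinases and inhibitors and none of 17 anaphase-promoting complex genes was called.

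**Figure D1:**
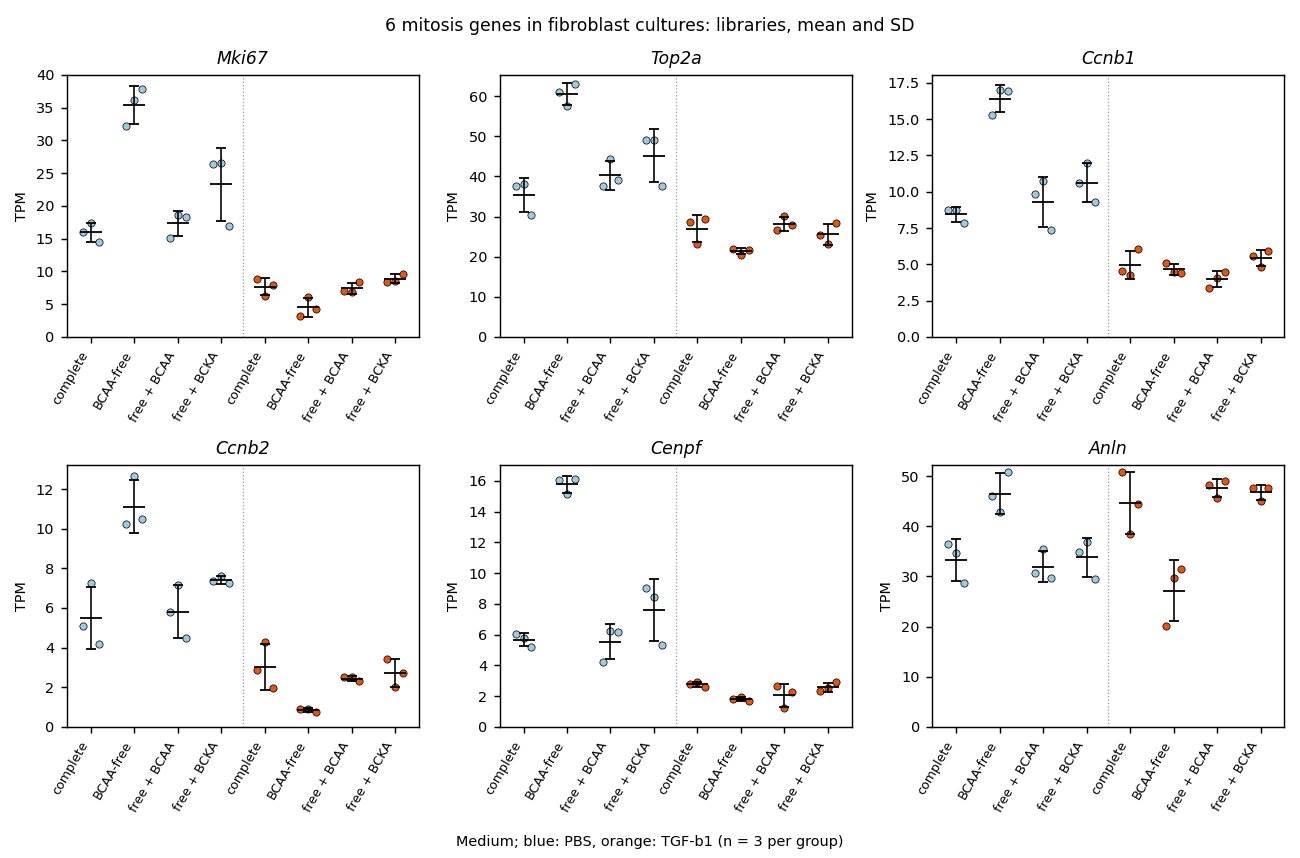
TPM (vertical axis) of Mki67, Top2a, Ccnb1, Ccnb2, Cenpf and Anln in each of the 3 libraries of the 8 culture groups (horizontal axis), with the mean and SD over the 3 libraries. Blue points are PBS and orange points TGF-β1. BCAA-free medium with PBS is the highest group for all but Anln, and BCAA-free medium with TGF-β1 is the lowest for Mki67, Top2a, Ccnb2, Cenpf and Anln.

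Returning BCAA or BCKA to BCAA-free medium was followed by lower mitosis genes at rest, and part of them were called. With BCAA returned, 10 of 37 fell and 0 rose (all genes: 0.138% lower and 0.122% higher), with a median log2 difference of -0.68. With BCKA returned, 5 of 37 fell and 0 rose (all genes: 0.268% lower and 0.397% higher), with a median of -0.58. All 37 differences were below 0 in each comparison, up to -0.28 with BCAA and -0.29 with BCKA. The libraries lay lower without overlap for 32 genes with BCAA and 33 with BCKA, against 5.33% and 4.66% of all genes. At an unadjusted p under 0.05 limma gave 35 genes in each. Of the 25 genes that rose on removal, 9 were called lower with BCAA and 5 with BCKA. These comparisons share the libraries of BCAA-free medium, so neither is support for the other.

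Cenpf was at 4.23, 6.26 and 6.16 TPM with BCAA returned (log2 difference from BCAA-free medium -1.37, adjusted p 0.00128, limma) and at 9.03, 8.45 and 5.33 TPM with BCKA returned (-0.99, adjusted p 0.00444). Each of these 6 libraries lay below the 3 libraries of BCAA-free medium. Mki67 was at 15.1, 18.6 and 18.3 TPM with BCAA returned (-0.99, adjusted p 0.0161, limma). With BCKA returned it was at 26.4, 26.6 and 16.9 TPM, and the difference of -0.61 (95% interval -0.98 to -0.24) was not called (adjusted p 0.176). Nusap1, which bundles spindle microtubules, differed by -1.03 with BCAA (adjusted p 0.0214, limma), and the checkpoint kinase Bub1 by -0.95 with BCAA and -0.67 with BCKA (adjusted p 0.00548 and 0.028, limma). Prc1, the cross-linker of midzone microtubules, fell from 22.7 ± 2.52 to 13.8 ± 1.85 TPM with BCKA (-0.68, adjusted p 0.00784, limma), and Ckap2l from 10.4 ± 1.42 to 5.06 ± 1.78 TPM (-0.95, adjusted p 0.0477).

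The direct difference between BCKA and BCAA at rest was not called for any of the 37 (all genes: 0.375% higher and 0.275% lower with BCKA). At an unadjusted p under 0.05 limma gave 3, Nusap1 (0.45), Mki67 (0.38) and Cenpf (0.38), each higher with BCKA. Over the 37 the widest 95% interval ran from -0.55 to 0.85. With BCAA the count of genes that fell was 3 without library 2 of BCAA-free medium, 3 without its library 3, 1 without library 1 of returned BCAA, 2 without its library 3, 6 with a pseudocount of 0.1 and 16 after median centring. With BCKA it was 3 without library 1 of BCAA-free medium, 2 without its library 2, 2 without library 1 of returned BCKA, 0 without its library 3, 3 with a pseudocount of 0.1 and 2 in a fit of the compared groups only.

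TGF-β1 lowered all 37 mitosis genes in BCAA-free medium and 23 of them in complete medium. In complete medium 23 of 37 fell and 1 rose, where 36.4% of all genes fell and 12.2% rose. The median was -0.48, against -0.20 over all genes. Median centring shifted the median over all genes by 0.19 and left 11 lower and 1 higher (23.0% of all genes lower and 21.3% higher). In BCAA-free medium all 37 fell, where 34.9% of all genes fell and 29.2% rose. The median was -1.62, against -0.06 over all genes, and the median ratio of group means was 0.248. After centring, all 37 again fell.

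In complete medium Mki67 went from 16.0, 17.4 and 14.5 TPM to 8.90, 6.23 and 7.86 TPM (log2 difference -0.98, adjusted p 9.36e-05, limma). The spindle motor Kif11 went from 6.29 ± 0.375 to 2.91 ± 0.637 TPM (-0.91, adjusted p 0.000153), and the midzone motor Kif20a from 9.01 ± 0.665 to 4.53 ± 1.06 TPM (-0.87, adjusted p 0.000175). None of the 4 passenger subunits and none of the 3 genes of degradation was called there. Anln, the actin-binding scaffold of the cleavage furrow, was the one gene that rose, from 36.5, 34.7 and 28.6 TPM to 50.8, 38.4 and 44.5 TPM (0.41, adjusted p 0.0191, limma). It was not called without library 3 of complete medium with PBS or without library 1 of complete medium with TGF-β1. The count of falls was 15 without library 1 and 11 without library 2 of complete medium with PBS.

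In BCAA-free medium Mki67 went from 32.3, 36.1 and 37.9 TPM to 3.20, 6.08 and 4.28 TPM (-2.75, adjusted p 7.36e-12, limma). Ccnb2 went from 10.2, 12.6 and 10.5 TPM to 0.922, 0.895 and 0.742 TPM (-2.71, adjusted p 4.53e-11, limma). Cenpf went from 16.1, 15.2 and 16.1 TPM to 1.8, 1.96 and 1.65 TPM (-2.58, adjusted p 1.95e-11, limma). For these 3 genes the highest TGF-β1 library lay far below the lowest PBS library. The smallest fall was that of Incenp, the scaffold of the passenger complex, at -0.49 (adjusted p 0.0107, limma). Without library 1 of BCAA-free medium with TGF-β1, 36 fell, and Incenp had a difference of -0.19 (adjusted p 0.0965). Anln, which rose with TGF-β1 in complete medium, fell here from 46.0, 42.8 and 50.8 TPM to 20.2, 29.8 and 31.5 TPM (-0.78, adjusted p 5.09e-05, limma).

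The difference between the TGF-β1 responses was tested as an interaction. The response was lower without BCAA for 36 of the 37 and higher for 0, where 18.4% of all genes were lower and 29.2% higher. The median was -1.26, against 0.13 over all genes, of which centring took 0.12. The largest were Ccnb2 at -2.0 (adjusted p 3.54e-06, limma), Nusap1 at -1.88 (9.57e-06) and Mki67 at -1.77 (5.49e-06). The checkpoint kinase Ttk was not called, at -0.16 with a 95% interval of -0.77 to 0.46. Without library 1 of BCAA-free medium with TGF-β1 the count was 34, and Bub1b, Incenp and Ttk were not called. The interaction holds the resting difference with its sign turned, since the genes began higher in BCAA-free medium.

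Under TGF-β1, BCAA removal lowered a smaller number. Of 37, 16 fell and 0 rose, where 24.8% of all genes fell and 35.5% rose, with a median of -0.38 against 0.10 over all genes, of which centring took 0.11. After centring 22 fell, and in a fit of the compared groups only 8 of 34 fell. Ccnb2 was at 2.85, 4.27 and 1.97 TPM in complete medium and at 0.922, 0.895 and 0.742 TPM without BCAA (-1.08, adjusted p 5.15e-05, limma). Cenpa, the histone variant of the centromere, went from 5.10, 6.96 and 5.25 TPM to 2.92, 2.54 and 2.84 TPM (-0.84, adjusted p 9.57e-06). Prc1 went from 11.0, 10.6 and 11.5 TPM to 5.42, 6.83 and 5.30 TPM (-0.82, adjusted p 9.76e-06). For each of these the groups did not overlap.

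Anln fell from 44.6 ± 6.19 to 27.1 ± 6.08 TPM (-0.71, adjusted p 0.000157, limma), and Plk1 from 5.07 ± 0.767 to 2.54 ± 0.720 TPM (-0.79, adjusted p 0.000736). The other genes that fell were Ube2c, Nusap1, Kif2c, Cdca3, Mki67, Cdk1, Kif4, Hmmr, Ccna2, Cenpf and Top2a. Ccnb1, in contrast to Ccnb2, had a difference of -0.06 (95% interval -0.35 to 0.23). None of the 4 passenger subunits and none of the 3 checkpoint kinases was called. Without library 1 of BCAA-free medium with TGF-β1, 18 fell and 3 rose, and the 3 were Ttk (0.50, adjusted p 0.0117, limma), Ndc80 (0.48, adjusted p 0.0318), a kinetochore protein that grips microtubules, and the checkpoint protein Bub1b (0.39, adjusted p 0.0451).

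The S phase list went the other way from the 37 genes in the same libraries. Of 50 tested S phase and replication genes, 23 were higher and 6 lower without BCAA under TGF-β1. Over all genes 35.5% were higher and 24.8% lower. The median of the S phase list was 0.31, against 0.10 over all genes. Mcm2 was at 70.3 ± 16.3 against 11.8 ± 1.15 TPM (2.45, adjusted p 8.95e-13, limma) and Mcm7 at 47.7 ± 4.55 against 8.93 ± 1.02 TPM (2.30, adjusted p 4.45e-15), both subunits of the replicative helicase. Of 63 further mitosis genes 11 rose and 12 fell, with a median of 0.01, so that list did not share the fall of the 37. Its largest falls were Cdkn3 (-1.52) and Depdc1a (-1.38). The 2 largest changes among 15 G1 genes were Cdkn1c, a Cdk inhibitor, at 11.4 ± 5.45 against 26.8 ± 3.19 TPM (-1.26, adjusted p 1.21e-05, limma), and Myc at 115 ± 55.4 against 43.7 ± 4.40 TPM (1.24, adjusted p 0.000134).

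Marker lists moved in the same comparison. Of 10 fibroblast markers, among them the collagen genes Col1a1 and Col1a2, 8 fell. Their summed TPM was 38411 to 42622 in complete medium. Without BCAA, libraries 2 and 3 lay below that range (11247 and 14953) and library 1 above it (56113). Such a sum can follow collagen expression as well as the number of fibroblasts, here and in the lungs, and these were not told apart. Also, of 5 tested macrophage markers 4 fell. In the cultures the macrophage marker C1qa was at 0 in all 24 libraries and Adgre1 was at most 0.0508 TPM, while Spp1, which fibroblasts also express, made up most of that list's sum (401 to 1014 TPM in BCAA-free medium with TGF-β1, 653 to 729 TPM in complete medium with TGF-β1). The part of the fibroblast marker fall in the mitosis gene result was not tested.

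**Figure D2:**
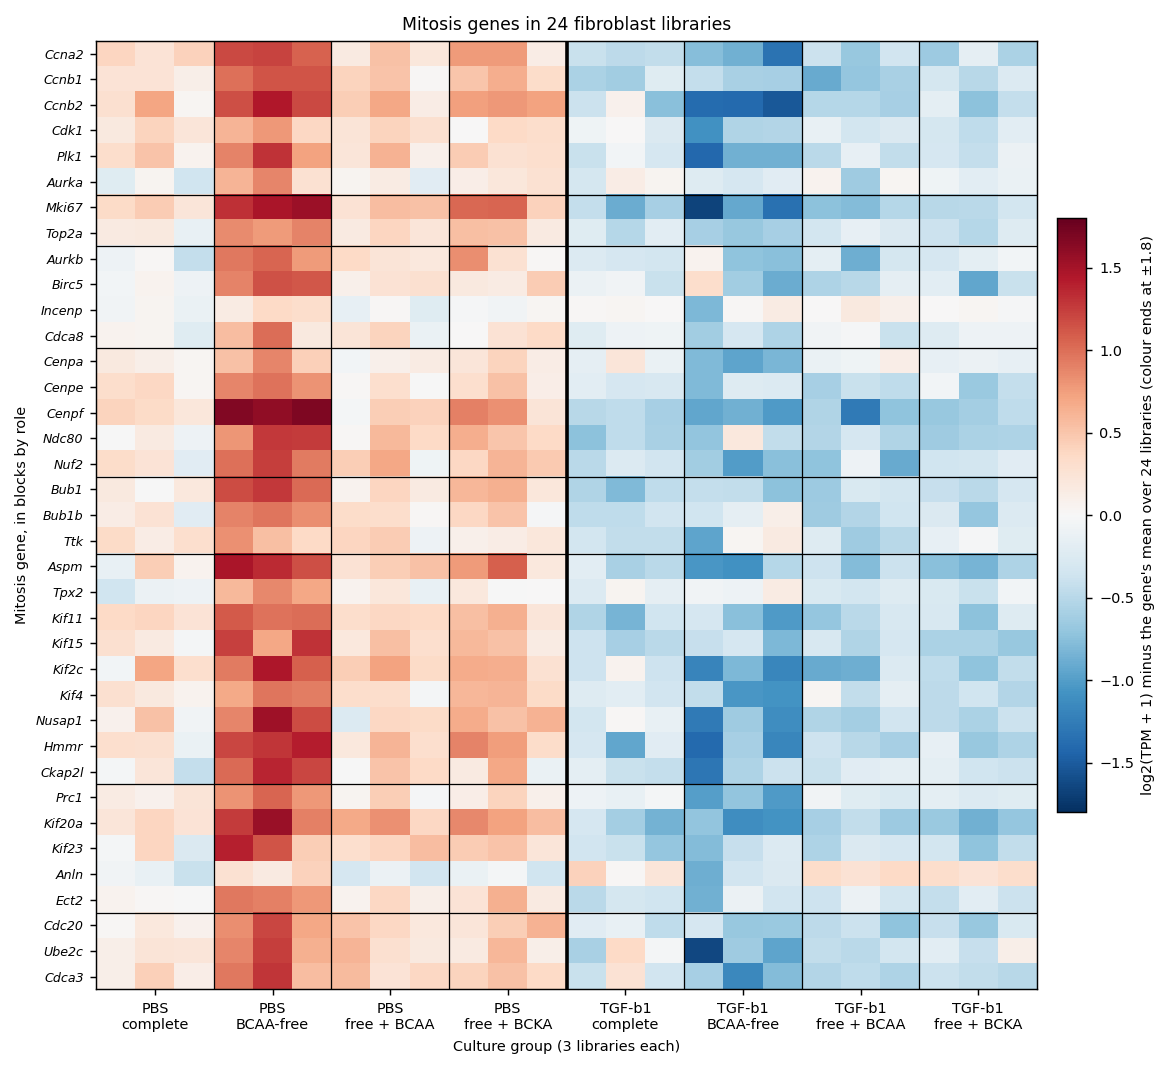
Each square is the log2(TPM + 1) of 1 of the 37 mitosis genes (vertical axis, grouped by role) in 1 of 24 culture libraries (horizontal axis, grouped by medium and treatment), minus the gene's mean over all 24. The colour scale ends at -1.8 and 1.8. The 3 libraries of BCAA-free medium with PBS form the high block, and most genes are low in the libraries of BCAA-free medium with TGF-β1.

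Returning BCAA or BCKA under TGF-β1 raised the same number of genes. With BCAA returned to BCAA-free medium, 14 of 37 rose and 0 fell, where 25% of all genes rose and 33.3% fell, with a median of 0.33. With BCKA returned, 14 rose and 0 fell, where 25.1% rose and 33.4% fell, with a median of 0.29. Of the 16 genes lowered by removal, 13 rose with BCAA and 13 with BCKA. These comparisons share the libraries of BCAA-free medium with TGF-β1, so neither count stands as separate support for the fall on removal.

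Cenpa was at 5.27, 5.47 and 6.40 TPM with BCAA (log2 difference 0.83, adjusted p 1.08e-05, limma) and at 5.17, 5.36 and 5.14 TPM with BCKA (0.72, adjusted p 5.75e-05), all above the 3 BCAA-free libraries. Anln was at 48.2, 45.7 and 49.1 TPM with BCAA (0.81, adjusted p 3.55e-05, limma) and at 47.6, 45.1 and 47.7 TPM with BCKA (0.79, adjusted p 5.31e-05). Prc1 rose to 10.3 ± 0.897 TPM with BCAA (0.73, adjusted p 4.75e-05, limma). Mki67 rose from 4.52 ± 1.45 to 8.88 ± 0.656 TPM with BCKA (0.87, adjusted p 0.000235, limma). Ccnb2 differed by 0.89 with BCAA and 0.99 with BCKA (adjusted p 0.000436 and 0.000152, limma).

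Without library 1 of BCAA-free medium with TGF-β1, 12 rose with BCAA and 3 fell (Bub1b at -0.48, Ttk at -0.55 and Tpx2 at -0.31). Tpx2 is a microtubule nucleator that activates Aurka. Also with BCAA, 1 gene fell without library 2 of that group or without library 3 of returned BCAA. With BCKA, 13 rose without library 1 of BCAA-free medium with TGF-β1 and 1 fell, Ndc80 (-0.46). With BCKA, 9 rose without library 1 of returned BCKA, and 1 fell without its library 3. A fit of the compared groups only gave 6 rises of 36 with BCAA and 9 of 35 with BCKA.

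Under TGF-β1 limma called none of the 37 between BCKA and BCAA (all genes: 0.222% higher and 0.0459% lower with BCKA). At an unadjusted p under 0.05 there was 1, Ccnb1 (0.37, 95% interval 0.08 to 0.66, higher with BCKA), and the widest interval of the 37 ran from -0.63 to 0.76. Against complete medium with TGF-β1, none was called with BCAA returned (all genes: 0% higher and 0.0153% lower, with 1 of the 37 at an unadjusted p under 0.05, widest interval -0.88 to 0.54) and none with BCKA returned (all genes: 0.405% higher and 0.206% lower, with 0 at an unadjusted p under 0.05, widest interval -0.78 to 0.71). These intervals still hold differences as large as many of those called above.

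TGF-β1 also lowered the genes in the media with BCAA or BCKA returned. With BCAA, 32 of 37 fell and 1 rose (33.2% of all genes lower, 11.5% higher), with a median of -0.72. With BCKA, 31 fell and 1 rose (34.3% lower, 11.5% higher), with a median of -0.79. Centring shifted the median over all genes by 0.18 and 0.20 and left 25 lower in each, with 2 and 1 higher. Kif20a fell most, by 1.19 and 1.46 on the log2 scale (adjusted p 4.04e-06 and 2.31e-07, limma). Among the other genes with a group mean of at least 5 TPM, the largest falls were Mki67 (-1.13) and Cenpf (-1.12) with BCAA, and Aspm (-1.39) and Mki67 (-1.27) with BCKA. The gene that rose was Anln in both, from 31.9 ± 3.07 to 47.7 ± 1.78 TPM with BCAA (0.57, adjusted p 0.00211, limma) and from 33.8 ± 3.83 to 46.8 ± 1.49 TPM with BCKA (0.46, adjusted p 0.00977). The rise with BCKA was not called without library 3 of returned BCKA with PBS.

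The same groups stood at the ends of the order for most genes. BCAA-free medium with PBS had the highest mean for 36 of the 37, the exception being Anln, whose highest mean was with BCAA returned and TGF-β1. The group with BCKA returned and PBS had the next highest mean for 30 genes, and BCAA-free medium with TGF-β1 the lowest mean for 26. Summed over the 37, levels were 512 to 573 TPM in BCAA-free medium with PBS, 267 to 319 in complete medium with PBS, 297 to 357 with BCAA returned and PBS, 314 to 386 with BCKA returned and PBS, 230 to 238 in complete medium with TGF-β1 and 153 to 180 in BCAA-free medium with TGF-β1. The ranges of complete medium with PBS and of the returned media with PBS overlap, and the other groups in this list are separate. Top2a and Anln were the most abundant, with group means of up to 60.5 TPM for Top2a and 47.7 TPM for Anln.

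In the lungs, bleomycin raised nearly all mitosis genes in each of the 3 experiments. In the water experiment 36 of 37 rose and 0 fell at day 14 (all genes: 14.8% higher, 7.08% lower), with a median of 1.54 and a median ratio of means of 4.54. In the diet experiment 35 rose and 0 fell at day 21 (48.7% higher, 12.3% lower), with a median of 1.53 and a ratio of 4.23. In the BT2 experiment 36 rose and 0 fell at day 14 (17.3% higher, 13.3% lower), with a median of 1.86 and a ratio of 5.87. In all 3 experiments 34 genes rose. In the diet experiment the share of all genes called higher was so large that the count of 35 must be read against it. There centring shifted the median over all genes by 0.56 and left 30 of 37 higher, where 24.3% of all genes were higher and 25.3% lower, with a median of 0.97. The mitochondrial share of TPM in that experiment was 12.2 to 17.3% for the 4 PBS lungs and 4.41 to 5.29% for the 4 bleomycin lungs, and its part in the result was not tested.

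In the water experiment Tpx2 was at 1.34, 3.15 and 1.44 TPM in PBS lungs and 19.2, 10.9 and 8.98 TPM after bleomycin (2.22, adjusted p 0.000472, limma). Cdk1 was at 1.5, 2.35 and 1.19 TPM against 13.6, 12.4 and 8.11 TPM (2.20, adjusted p 0.000131). Ube2c, the ubiquitin carrier of the anaphase-promoting complex, was at 2.56, 4.98 and 3.68 TPM against 21.4, 23.9 and 13 TPM (2.10, adjusted p 0.00025). The lungs did not overlap between the groups, and library 3 was the lowest of the bleomycin lungs in each of these genes. The spindle motor Kif15 was the gene not called, at 0.37 (95% interval -0.11 to 0.84).

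In the diet experiment Ccnb1 was at 0.343, 1.52, 1.27 and 1.25 TPM in PBS lungs and 10.8, 9.04, 11.1 and 14.7 TPM after bleomycin (2.59, adjusted p 7.9e-07, limma). Cenpa rose from 1.36 ± 0.505 to 11.9 ± 2.17 TPM (SD, n = 4; 2.46, adjusted p 3.14e-06) and Ccnb2 from 6.09 ± 0.992 to 35.5 ± 6.11 TPM (2.36, adjusted p 1.4e-06). The 2 genes not called there act in cytokinesis, while Prc1 of the same role rose by 1.62. Kif23, the motor of the centralspindlin complex, differed by 0.35 (95% interval -0.08 to 0.78), and Ect2, the exchange factor that switches on RhoA at the midzone, by 0.41 (0.00 to 0.82).

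In the BT2 experiment Ccnb2 was at 6.51, 2.97 and 2.09 TPM in PBS lungs and 40.3, 38.3 and 53.4 TPM after bleomycin (3.30, adjusted p 0.000274, limma). Cdca3, which links the Wee1 kinase to its destruction at mitotic entry, rose from 1.91 ± 0.326 to 20.8 ± 4.33 TPM (2.89, adjusted p 0.000338, limma), and Cdk1 from 1.27 ± 0.372 to 15.4 ± 3.28 TPM (2.85, adjusted p 0.00023). Kif23 again was not called (0.76, adjusted p 0.0804). The doses and days differ between the experiments, so the sizes are given side by side only.

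Of the further mitosis genes, 45 of 63 rose and 3 fell in the water experiment, 53 of 63 rose and 2 fell in the diet experiment, and 45 of 61 rose and 1 fell in the BT2 experiment. Of S phase genes 30 of 50 rose and 0 fell in the water experiment (14.8% of all genes rose) and 30 of 51 rose and 0 fell in the BT2 experiment (17.3%). In the diet experiment 18 of 50 S phase genes rose and 4 fell, where 48.7% of all genes rose, and their summed TPM overlapped between PBS (526 to 743) and bleomycin (713 to 773). Foxm1 rose by 1.37, 1.71 and 1.69 (adjusted p 0.00293, 1.52e-05 and 0.000757, limma).

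Markers of several cell types also changed in all 3 experiments, and not all in the direction of the mitosis genes. Of 10 macrophage markers 8, 10 and 8 rose with bleomycin in the water, diet and BT2 experiments, and 0 fell. Their summed TPM went from 506 to 704 up to 4216 to 5333 in the water experiment, from 190 to 370 up to 8730 to 16431 in the diet experiment and from 491 to 760 up to 14901 to 22884 in the BT2 experiment. Spp1, which fibroblasts also express, was the largest part of these sums in bleomycin lungs. It was at 3042 to 3653, 5993 to 13722 and 8562 to 17542 TPM there, in the same order. No macrophage marker was at 0 in every library of any lung group. Mertk was at 3.32 to 6.02 TPM in PBS lungs of the diet experiment. It was at 41.2 to 55.2 and 48.6 to 56.6 TPM in PBS lungs of the water and BT2 experiments. Csf1r, Spp1, Mrc1 and Marco were also lower in the diet PBS lungs than in those, and Cd68 was higher. The other macrophage markers overlapped with the PBS lungs of the water or BT2 experiment. In the water experiment the mean of Mertk went from 50.3 to 32.1 TPM with bleomycin. The summed TPM of 10 fibroblast markers was 363 to 601 in PBS and 996 to 1411 in bleomycin lungs of the water experiment, 301 to 421 and 2295 to 2979 in the diet experiment, and 536 to 551 and 2299 to 2789 in the BT2 experiment. Of these markers 5, 7 and 6 rose, and 1, 2 and 2 fell. The summed TPM of 9 epithelial markers was lower after bleomycin without overlap, at 85475 to 159404 against 176690 to 286771 in the water experiment, 47282 to 57663 against 123170 to 282877 in the diet experiment, and 23299 to 33756 against 164352 to 195316 in the BT2 experiment. Of these 1, 4 and 6 fell, and 1, 2 and 0 rose. The part of these marker changes in the level of the mitosis genes was not tested.

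**Figure D3:**
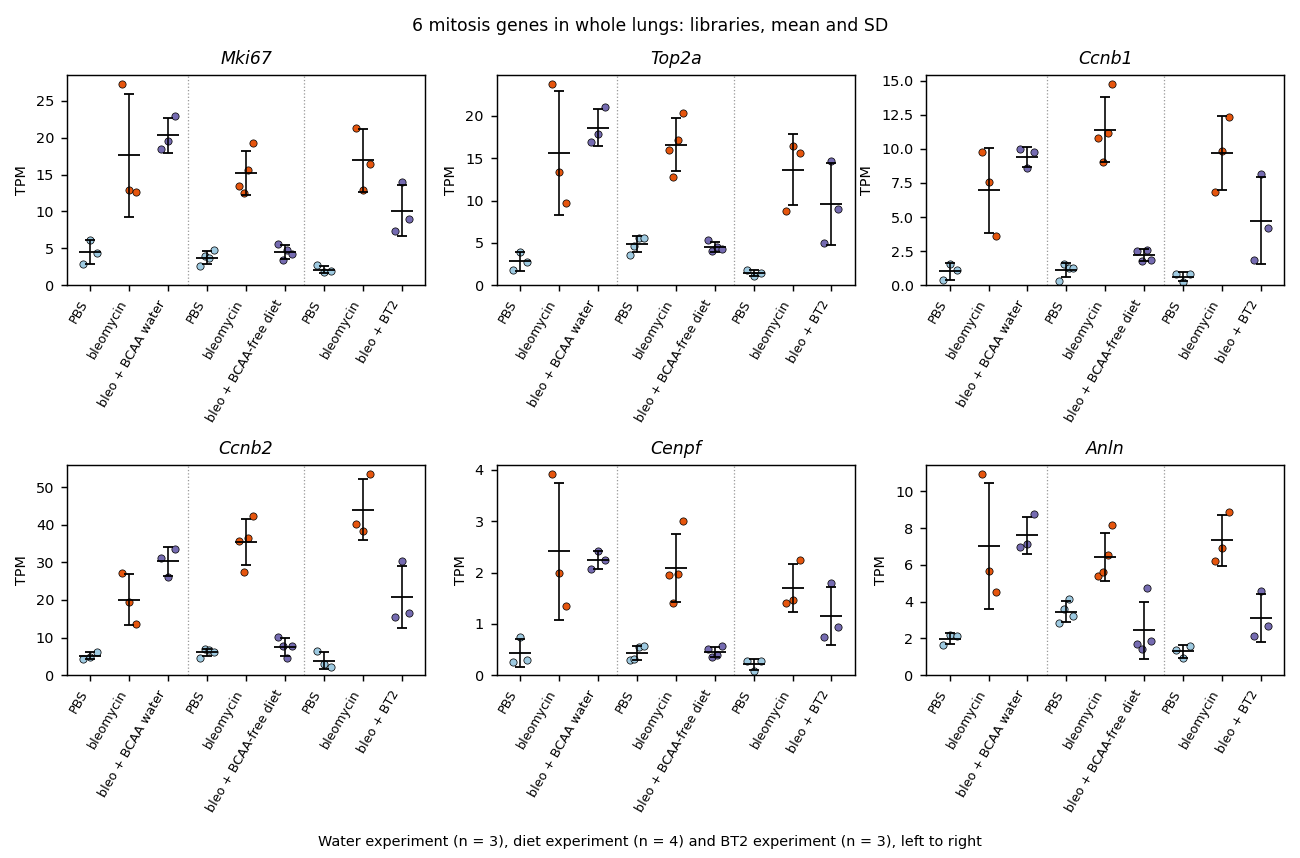
TPM (vertical axis) of Mki67, Top2a, Ccnb1, Ccnb2, Cenpf and Anln in each lung of the 9 lung groups (horizontal axis), with the mean and SD over 3 or 4 lungs. Blue points are PBS, orange points bleomycin and purple points treated bleomycin lungs. The bleomycin lungs of the diet experiment lie above those on the BCAA-free diet for each of these genes.

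The BCAA-free diet was followed by lower mitosis genes in bleomycin lungs. At day 21, 35 of 37 were lower than on the normal diet and 0 higher, where 6.12% of all 18593 tested genes were lower and 4.02% higher. The median was -1.35, against -0.09 over all genes, and the median ratio of means was 0.297. The groups did not overlap for 36 of the 37, against 13.2% of all genes. After centring, a shift of 0.13 for the median over all genes, 35 were again lower, and without library 3 of the BCAA-free diet 36 were.

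Ccnb2 was at 35.7, 27.4, 36.5 and 42.2 TPM on the normal diet and 10.2, 7.82, 4.46 and 7.71 TPM on the BCAA-free diet (-2.12, adjusted p 0.000155, limma). Cdk1 was at 14.8, 13.3, 14.7 and 17.5 TPM against 4.23, 2.47, 2.01 and 2.95 TPM (-2.06, adjusted p 0.000107). Cdca3 was at 15.9, 12.9, 17.0 and 17.5 TPM against 3.44, 3.64, 1.69 and 4.01 TPM (-2.04, adjusted p 0.00012). In each of the 3 genes the highest lung on the BCAA-free diet was below the lowest on the normal diet, and library 3 of the BCAA-free diet was the lowest of all.

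Mki67 was at 13.4, 12.5, 15.6 and 19.2 TPM against 5.59, 3.46, 4.73 and 4.26 TPM (-1.55, adjusted p 0.000463, limma), and Top2a at 16.0, 12.8, 17.2 and 20.4 TPM against 5.38, 4.03, 4.55 and 4.24 TPM (-1.65, adjusted p 0.000199). Ccnb1 was at 11.4 ± 2.39 against 2.19 ± 0.445 TPM (-1.95, adjusted p 0.000284). All 6 cyclins and kinases of entry, both chromosome structure genes, all 4 passenger subunits, all 5 kinetochore genes, all 9 spindle genes and all 3 genes of degradation were lower, with 2 of 3 checkpoint kinases and 4 of 5 cytokinesis genes. The exceptions were Bub1 (-0.82, 95% interval -1.35 to -0.29, adjusted p 0.0508, limma) and Kif23 (-0.55, -0.98 to -0.12, adjusted p 0.101).

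Against the PBS lungs of the same experiment, 6 genes were higher and 3 lower on the BCAA-free diet with bleomycin (42.3% of all genes higher, 12.5% lower). The highest were Bub1b (0.77, adjusted p 0.00158, limma) and Cdc20, the activator of the anaphase-promoting complex (13.5 ± 1.94 against 7.57 ± 0.924 TPM, 0.76, adjusted p 0.00171), followed by Cenpa, Ccnb1, Nusap1 and Hmmr. The 3 lower were Cdk1 (-0.71, adjusted p 0.00623), Ect2 (-0.58, adjusted p 0.0202) and Cdca3 (-0.53, adjusted p 0.0344). This split is not stable: centring shifted the median over all genes by 0.44 and gave 0 higher and 10 lower, with 25% of all genes higher and 25.6% lower. The count of higher genes was 2 without library 1 of PBS, 3 without its library 2, 3 without library 1 of the BCAA-free diet and 9 without its library 3, and the count of lower genes was 1 without library 4 of PBS. The 3 groups share a fit, and 34 genes were both higher by bleomycin and lower on the BCAA-free diet, 2 comparisons that share the bleomycin lungs on the normal diet.

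The other cell cycle lists are read against the 6.12% of all genes that were lower on the BCAA-free diet. Of 63 further mitosis genes 46 were lower and 0 higher (median -0.93), with the largest falls in Cenpm at 1.16 ± 0.928 against 7.93 ± 1.69 TPM (-2.15) and Pimreg at 1.92 ± 0.485 against 10.8 ± 4.22 TPM (-1.97). Of 50 S phase genes 13 were lower and 0 higher (median -0.41). The cyclin Ccne1 was at 2.18 ± 1.62 against 7.76 ± 0.969 TPM (-1.67, adjusted p 0.0252, limma) and Rrm2 was at 8.14 ± 1.68 against 23.2 ± 1.52 TPM (-1.42, adjusted p 0.000463, limma). Foxm1 (-1.25, adjusted p 0.00254) and E2f8 (-0.92, adjusted p 0.0108) were lower among 23 transcription factors, and the Cdk inhibitors Cdkn2a (-1.69, adjusted p 0.00195) and Cdkn2c (-1.0, adjusted p 0.0312) among 15 G1 genes. Of 17 anaphase-promoting complex genes 1 was lower and 0 higher, so that list and the transcription factors were near the share of all genes. Of 10 macrophage markers 5 were lower, and the summed TPM of the 10 was 2944 to 4769 against 8730 to 16431, with no marker at 0 in every library. Within these sums Spp1 was at 1703 to 3059 against 5993 to 13722 TPM. C1qa, C1qb, Mrc1 and Marco were also lower without overlap, while Adgre1, Cd68, Csf1r, Trem2 and Mertk overlapped between the groups. Of 10 fibroblast markers 3 were higher and 4 lower, with a summed TPM of 1248 to 1716 against 2295 to 2979. Of 9 epithelial markers 2 were higher, with a summed TPM of 61872 to 119765 against 47282 to 57663. Whether these marker differences bear on the mitosis genes was not tested.

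BT2 gave a smaller and less certain difference. In bleomycin lungs 4 of 37 were lower with BT2 than with DMSO and 0 higher, where 5.41% of all 18151 tested genes were lower and 6.34% higher. The median was -0.59, against 0.12 over all genes, of which centring took 0.11. At an unadjusted p under 0.05 there were 15, and the groups did not overlap for 12, all lower with BT2, against 14.3% of all genes. The 4 were Cdca3, Ccna2, Anln and Cenpe.

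Cdca3 was at 20.2, 16.9 and 25.5 TPM with DMSO and 5.52, 15 and 6.98 TPM with BT2 (-1.20, adjusted p 0.0429, limma). The S and G2 phase cyclin Ccna2 was at 15.1, 19.4 and 22 TPM against 5.40, 10.9 and 7.66 TPM (-1.17, adjusted p 0.0235). Anln was at 6.20, 6.93 and 8.85 TPM against 2.10, 4.6 and 2.66 TPM (-1.05, adjusted p 0.0377). Library 2 of BT2 was the highest of its group in each of these genes, and for Cdca3 it came close to the lowest DMSO lung. Cenpe, the kinetochore motor, differed by -0.91 (adjusted p 0.0456, limma). Mki67 was at 21.3, 12.9 and 16.5 TPM against 7.33, 14.0 and 8.91 TPM (-0.71, 95% interval -1.32 to -0.10, adjusted p 0.105), and the groups overlapped. Ccnb2 differed by -1.10 (-1.88 to -0.31, adjusted p 0.0667).

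The count with BT2 rested on single libraries and on the settings. Without library 2 of BT2 11 of 36 tested genes were lower, Cdca3 by 1.58 and Ccna2 by 1.40 on the log2 scale. Without library 1 or library 3 of BT2 0 were called by limma, and without library 1 or library 3 of DMSO 1 was. Centring gave 10, a pseudocount of 0.1 gave 1, and no filter or a fit of the compared groups only gave 0. Of 61 further mitosis genes 5 were lower, led by Cenph (-1.20), and 1 higher, Cdc25b (1.20), and of 51 S phase genes 2 were lower, Dut (-1.06) and Dbf4 (-0.83). Of 10 macrophage markers 7 were lower, with a summed TPM of 2402 to 4963 against 14901 to 22884 and no marker at 0 in every library. Within these sums Spp1 was at 1174 to 2272 against 8562 to 17542 TPM. Csf1r, Marco and Mertk overlapped between the groups, and the other macrophage markers were lower without overlap. Of 10 fibroblast markers 3 were lower and 1 higher (summed TPM of 827 to 1866 against 2299 to 2789), and of 9 epithelial markers 3 were higher (93873 to 169668 against 23299 to 33756), both sums without overlap. Of 7 B and plasma cell markers 4 were higher, and of 8 T and NK cell markers 2. The part of these differences in the mitosis genes was not tested.

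Against PBS lungs, BT2-treated bleomycin lungs had 19 of 37 higher and 0 lower (4.13% of all genes higher, 1.17% lower), with a median of 1.16. The groups did not overlap for all 37, against 26.1% of all genes. The largest were Ccnb2 (2.20, adjusted p 0.00973, limma), Top2a (2.01, adjusted p 0.0152) and Cdk1 (1.95, adjusted p 0.00763). The count was 5, 3 and 3 without library 1, 2 or 3 of PBS, 5 without library 2 of BT2 and 8 without its library 3, and 6 with no filter. For all 37 genes the mean with BT2 lay between that of PBS and that of DMSO with bleomycin.

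BCAA in the drinking water gave no called difference. Between bleomycin lungs with BCAA water and with normal water limma called 0 of 37, where the shares of all genes were 0.872% higher and 0.331% lower. Without adjustment, 7 had a p under 0.05, among them Cdca3 at 12.8, 16.0 and 15 TPM against 10.7, 9.67 and 7.12 TPM (0.63, 95% interval 0.21 to 1.05, adjusted p 0.133). The median was 0.29, against 0.03 over all genes, and the widest interval of the 37 ran from -0.89 to 1.17. Mki67 was at 18.4, 19.6 and 23.0 TPM against 27.3, 12.9 and 12.7 TPM, and library 1 of normal water was above all lungs with BCAA water. Against PBS lungs, 36 of 37 rose with BCAA water and 0 fell (22.7% of all genes higher, 11.1% lower), with a median of 1.67, from Kif23 (0.64, adjusted p 0.0528, limma, not called) to Ube2c (2.59, adjusted p 3e-05), with Cdk1 at 2.56 and Tpx2 at 2.5. Centring shifted the median over all genes there by 0.10 and left the count at 36. Between the bleomycin groups 1 of 10 macrophage markers was higher with BCAA water, with a summed TPM of 9978 to 11755 against 4216 to 5333. Within these sums Spp1 was at 7592 to 9157 against 3042 to 3653 TPM.

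**Figure D4:**
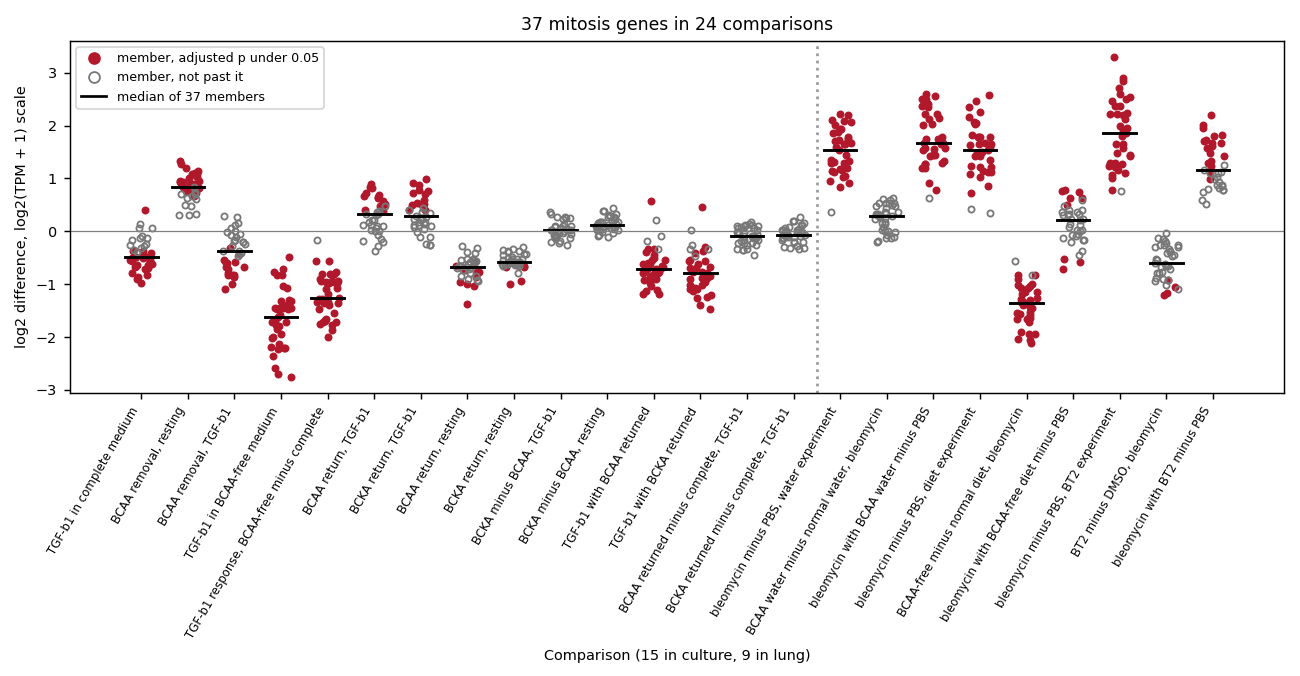
Log2 difference on the log2(TPM + 1) scale (vertical axis) of each of the 37 mitosis genes in the 24 comparisons (horizontal axis). Filled red points were called by limma at an adjusted p under 0.05, open points were not, and the bar is the median of the 37. The medians are lowest for TGF-β1 in BCAA-free medium (-1.62) and for the BCAA-free diet (-1.35) and highest for bleomycin in the BT2 experiment (1.86).

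**Figure D5:**
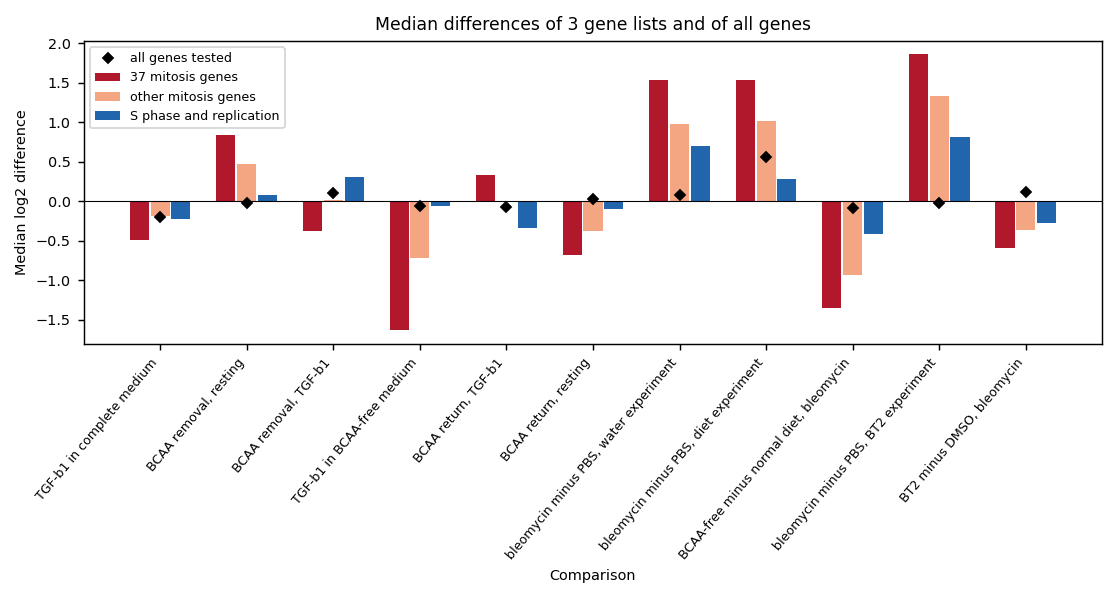
Median log2 difference on the log2(TPM + 1) scale of the 37 mitosis genes, the further mitosis genes, the S phase genes and all tested genes (diamonds) in 11 comparisons. The 37 mitosis genes and the S phase genes lie on opposite sides of 0 for BCAA removal under TGF-β1 (-0.38 and 0.31). They also do so for BCAA return under TGF-β1 (0.33 and -0.34). The further mitosis genes lie near 0 for BCAA removal under TGF-β1.

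Reads of some of these genes can be shared with neighbours. Of the 37 genes, 8 share exon bases with a protein-coding gene on the other strand in a GRCm38 annotation: Ccna2 with Exosc9 (428 bases), Kif4 with Pdzd11 (683), Prc1 with Rccd1 (670), Kif20a with Cdc23 (977), Nusap1 with Oip5 (172), Cdca8 (145), Ube2c with Tnnc2 (144) and Cdc20 with Elovl1 (53). Whether counting used strand is not stated, so values of these genes may hold reads of their partners.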

How the data were processed

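The authors deposited 4 tables of TPM, 1 for the 24 culture libraries and 1 for each mouse experiment, with 1 column per sample and 0 columns left unmapped. The submitters' processing notes name mm39 as build and, as tools, HISAT2, Subread, featureCounts, DESeq2, Trim Galore and FastQC, without versions, roles or order. No annotation is named there. The extraction protocol in the labels names heart tissue, while the tissue samples are labelled lung.

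Entries lacking a symbol were left out (0.212 to 0.367% of the summed TPM of lung libraries) and repeated symbols added. Tests covered genes at a TPM of 1 or more in 3 or more libraries: 13084, 17209, 18593 and 18151 in the culture, water, diet and BT2 tables. All groups of a table were fitted together on log2(TPM + 1) with limma 3.58.1 (R 4.3.3), group means and a mean-variance trend. The tests were two-sided, with Benjamini-Hochberg adjustment over all genes tested, in 24 comparisons. The procedure was tested on simulated data. Alternatives were a pseudocount of 0.1, no filter, a minimum TPM of 5, median centring of each library, a fit of the compared groups only, a replicate block, and leaving out each library in turn. Results without single libraries that stood apart were named after the values were seen.

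The genes and lists were chosen with earlier results of these data known. By the rule for named genes, each comparison gives the 3 called genes with the largest change and a mean TPM of at least 5, genes against the majority, and 8 fixed genes where a comparison turns on them. Promoters are from RefSeq (GRCm38.p6), not the files' build, and 5 genes were not matched.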

Additional observations from a re-analysis of the deposited data

Results flagged for a closer look

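In groups of 4 lungs, 6 of 111 checks of a gene in a group found a lung far from the other 3, and chance gives about 1 in 20 groups. Incenp was at 5.30 TPM in library 1 of PBS with normal diet (others 7.25 to 7.39), and Nuf2 was at 0.815 TPM there (others 1.13 to 1.17). In library 3 of the BCAA-free diet Kif15 was listed at 0 (others 0.596 to 0.690 TPM) and Anln was at 4.74 TPM (others 1.45 to 1.87). Bub1b was at 4.69 TPM in library 4 of the BCAA-free diet (others 4.16 to 4.20), and Ckap2l was at 14.2 TPM in library 4 of bleomycin with normal diet (others 7.39 to 8.50).

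The TGF-β1 response differed between BCAA-free and complete medium by the interaction test (limma) for 36 of the 37 genes, each lower without BCAA. Over all genes 18.4% were lower and 29.2% higher. As stated above, this difference holds the resting difference with its sign turned. The largest differences were Ccnb2 at -2.0, Nusap1 at -1.88 and Mki67 at -1.77 on the log2 scale.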

How the results depend on the processing

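Of 456 calls of single genes in the 24 comparisons 0 reversed under any alternative. Calls lost were 28 with a pseudocount of 0.1, 57 with no filter, 3 with a minimum TPM of 5, 38 with median centring, 17 with the replicate block and 45 with the compared groups only. Calls on genes that a setting's filter removed were not counted as lost. With a minimum TPM of 5, 26 of 36 bleomycin calls were kept in the water experiment and 24 of 35 in the diet experiment. The rest of these were not tested. TPM hold no depth, so the precision of low genes is unknown. The cause of the changes below was not tested, except that a fit of the compared groups only has fewer samples and a stricter filter fewer genes.

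Median centring changed the counts to 11 lower for TGF-β1 in complete medium, 16 lower for BCAA return at rest, 2 higher for TGF-β1 with BCAA returned, 0 higher and 10 lower for the BCAA-free diet against PBS, and 10 lower for BT2. A pseudocount of 0.1 gave 15 higher for BCAA removal at rest, 6 and 3 lower for BCAA and BCKA return at rest, and 1 lower for BT2. No filter gave 3 higher and 1 lower for the BCAA-free diet against PBS, 0 lower for BT2, and 6 higher for BT2 against PBS. A minimum TPM of 5 gave 22 of 23 higher for bleomycin in the BT2 experiment. The compared groups only gave 8 lower for BCAA removal under TGF-β1, 6 and 9 higher for BCAA and BCKA return under TGF-β1, 2 lower for BCKA return at rest, 2 higher and 1 lower for the BCAA-free diet against PBS, and 0 lower for BT2.

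Leaving out each library in turn gave these ranges. TGF-β1 in complete medium had 0 to 1 higher and 11 to 20 lower, BCAA removal at rest 11 to 23 higher, and BCAA removal under TGF-β1 0 to 3 higher and 13 to 18 lower. TGF-β1 in BCAA-free medium had 36 to 37 lower, and its difference from complete medium 34 to 36 lower. Under TGF-β1, BCAA return had 10 to 15 higher and 0 to 3 lower, and BCKA return 9 to 13 higher and 0 to 1 lower. At rest, BCAA return had 1 to 7 lower and BCKA return 0 to 5 lower. TGF-β1 with BCKA returned had 0 to 1 higher and 26 to 30 lower. Bleomycin had 30 to 36, 34 to 36 and 32 to 37 higher in the water, diet and BT2 experiments. The BCAA-free diet had 34 to 36 lower, and against PBS 2 to 9 higher and 1 to 4 lower. BT2 had 0 to 11 lower, and against PBS 3 to 21 higher.

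Groups share replicate numbers. The median correlation of same-numbered deviations was 0.0107 in cultures and -0.0508, -0.0083 and 0.0254 in the water, diet and BT2 experiments. In cultures the correlations ran from -0.486 to 0.535, with 29 of 84 above 0.1. A median near 0 cannot settle whether the numbers pair the samples of some groups. With the replicate block BT2 had 1 gene lower in place of 4, and no other count moved by over 1.5 times.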
